A study of Saccharomyces cerevisiae with 12 samples.

Results

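The genes described here encode the machinery of the replication fork. They were picked by a list of gene names, which uses no measured value but was drawn up with earlier results of these data known. They are 40 of the 6412 genes and other features counted in each of 12 samples of budding yeast mRNA. They comprise the 4 GINS subunits, the 11 subunits of DNA polymerases alpha, epsilon and delta, the PCNA clamp and its loaders, replication protein A (RPA), the fork protection proteins with Ctf4, the topoisomerases Top1 and Top2, and the enzymes that mature Okazaki fragments. At a fork, GINS joins Cdc45 and the Mcm2-7 ring to form the replicative helicase, polymerase epsilon copies the leading strand, and polymerase alpha/primase starts each Okazaki fragment, which polymerase delta extends while held by the PCNA ring. Many of these genes are transcribed in a wave at the G1/S boundary in budding yeast, under the factor MBF (Mbp1-Swi6), which reads a promoter element called the MCB. The comparison asks how the messenger RNAs of this machinery stand when replication is started in cells that are kept in G1.

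Wild-type S cells (strain E3087) were arrested in G1 with the mating pheromone α-factor for 2.5 h and released into fresh medium for 30 min. CDK/DDK bypass G1 cells (YKR1503) were arrested for 2.5 h and then induced for 3 h with 2% galactose, while arrested. Galactose drove Dbf4, Dpb11 and Sld2-T84D, a phosphomimetic variant, from the inducible pGAL1-10 promoter. In the paper, Dpb11 and Sld2-T84D bypass control by the cyclin-dependent kinase (CDK). Dbf4, a subunit of the Dbf4-dependent kinase (DDK), allows DDK to be active in G1. Together they start replication in arrested cells. Wild-type G1 cells (YKR1500) had the same arrest and the same 3 h treatment. Before arrest, all cultures grew at 30 °C in a rich medium with 2% raffinose as the sugar. All strains were made in the W303 background, the strain differs in every group, so strain and condition cannot be told apart, and each group has 4 replicates. By their labels, S cells also lacked the further 3 h of arrest with galactose that both G1 groups had. In comparisons with S cells, phase, time in arrest and treatment therefore cannot be told apart either.

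Samples held 8162140 to 10545835 counts on genes, and 131 to 4430 counts on each of the 40 genes, all of which passed the filter on low counts. DPB11, SLD2 and DBF4 averaged 2251, 3397 and 900.1 CPM (counts scaled to library size with TMM) in bypass cells, against 42.9, 35.8 and 100.5 CPM in wild-type G1 cells, in counts that hold induced and endogenous transcripts together. All 6 pheromone genes listed were lower in S cells than in wild-type G1 cells (median log2 fold change −6.24) and all 6 G1/S genes listed were higher (median 4.61). Of the 4 mitotic genes listed, CLB1, SWI5 and CLB2 were higher in S cells (log2 fold change 4.89, 3.09 and 0.73). ASE1 was lower (−0.69). Among the S replicates, all 4 mitotic genes were higher in replicates 1 and 2 than in 3 and 4, and all 6 G1/S genes were lower. For example, CLB1 was at 114, 113, 63.7 and 56.8 CPM and RNR1 at 821, 829, 1034 and 1005 CPM in S replicates 1 to 4. GAL1 was at 9729 ± 288 CPM in S cells (SD, n = 4), although the labels name no galactose step for them. Within each group, replicates 1 and 2 resembled each other, as did replicates 3 and 4, more than they resembled the other replicates. The split was widest in wild-type G1, the reference for S and for bypass cells. Its mean chi-square per gene across these sets was 42.5 to 45.7, beside 7.2 to 7.8 in S and 2.98 to 3.44 in bypass cells. Nothing in the sources used here says that replicates came from separate cultures, so p-values measure the spread between these samples, which may be technical.

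The promoters of these genes are shown first, because many of them hold an element that was not searched for in choosing the genes. The names were drawn up with earlier results known, so the share of genes with the element is a description. Windows of 300 bases, 250 before and 50 from the start of the coding sequence, were read from the R64 genome of RefSeq (sacCer3). The MCB element was searched as ACGCGT, which reads the same on both strands. It was in 24 of the 40 windows (60%), against 184 of the 6001 windows of nuclear protein-coding genes (3.07%). At least 2 copies were in 7 windows (17.5%), against 21 of all windows (0.35%), and these 7 belonged to POL1, POL12, RFA1, RFA2, MRC1, TOF1 and RAD27. The related element SCB, searched as CNCGAAA on both strands, was in 13 windows (32.5%), against 829 of all windows (13.8%), and in 1 of the 13, that of POL30, it overlapped an MCB.

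The 6 windows below, written 5′ to 3′ on the gene's strand with each MCB in capitals, belong to genes on which the comparisons turn: 3 with 2 copies whose messages rose most in S among the genes with the element, POL30, which rose most in bypass cells, and RFC5 and DNA2, which hold no MCB and were among the highest and the lowest in S relative to wild-type G1. The POL1 window is chr14:429837-430136 on the plus strand, TOF1 is chr14:122633-122932 (plus), RAD27 is chr11:225826-226125 (minus), POL30 is chr2:425717-426016 (minus), RFC5 is chr2:423515-423814 (plus) and DNA2 is chr8:429129-429428 (minus).
POL1: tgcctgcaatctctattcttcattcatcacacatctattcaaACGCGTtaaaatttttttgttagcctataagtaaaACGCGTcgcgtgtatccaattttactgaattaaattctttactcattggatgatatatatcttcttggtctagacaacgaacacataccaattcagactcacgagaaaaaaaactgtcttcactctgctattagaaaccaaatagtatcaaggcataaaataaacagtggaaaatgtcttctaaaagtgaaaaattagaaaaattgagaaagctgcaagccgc
TOF1: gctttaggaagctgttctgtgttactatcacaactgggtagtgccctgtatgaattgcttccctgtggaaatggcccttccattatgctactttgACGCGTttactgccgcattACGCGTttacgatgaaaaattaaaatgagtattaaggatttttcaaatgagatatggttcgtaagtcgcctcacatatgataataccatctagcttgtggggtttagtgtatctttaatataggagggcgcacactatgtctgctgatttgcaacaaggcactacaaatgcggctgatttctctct
RAD27: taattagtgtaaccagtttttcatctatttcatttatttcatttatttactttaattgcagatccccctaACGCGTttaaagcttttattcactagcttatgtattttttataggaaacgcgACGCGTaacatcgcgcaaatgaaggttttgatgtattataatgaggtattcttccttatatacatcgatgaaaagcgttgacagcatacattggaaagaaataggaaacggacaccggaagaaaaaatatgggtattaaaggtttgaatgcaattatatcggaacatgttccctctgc
POL30: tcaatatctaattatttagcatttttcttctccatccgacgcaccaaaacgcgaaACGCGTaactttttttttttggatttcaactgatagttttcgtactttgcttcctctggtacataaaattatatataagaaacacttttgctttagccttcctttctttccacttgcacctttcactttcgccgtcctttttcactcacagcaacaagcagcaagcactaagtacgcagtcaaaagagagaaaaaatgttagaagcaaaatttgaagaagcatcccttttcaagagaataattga
RFC5: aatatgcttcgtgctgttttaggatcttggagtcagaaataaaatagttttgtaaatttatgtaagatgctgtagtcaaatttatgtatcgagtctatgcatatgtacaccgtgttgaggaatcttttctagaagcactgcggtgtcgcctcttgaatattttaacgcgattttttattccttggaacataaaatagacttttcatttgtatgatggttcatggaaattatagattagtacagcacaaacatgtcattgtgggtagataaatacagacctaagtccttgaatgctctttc
DNA2: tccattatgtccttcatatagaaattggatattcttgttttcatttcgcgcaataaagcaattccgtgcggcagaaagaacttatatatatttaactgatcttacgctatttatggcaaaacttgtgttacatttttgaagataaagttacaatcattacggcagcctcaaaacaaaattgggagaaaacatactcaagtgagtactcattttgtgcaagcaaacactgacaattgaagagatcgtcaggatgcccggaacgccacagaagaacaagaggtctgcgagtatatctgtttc

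The copies in POL1 began 208 and 173 bases before the start codon, those in TOF1 155 and 136 bases, those in RAD27 180 and 128 bases, and the single copy in POL30 195 bases. Outside TOP1, whose copy began 10 bases before the start codon, the elements of the 24 genes lay between 72 and 222 bases before it. A match is a run of letters in a window and was not tested for binding.

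In wild-type S cells the messenger RNAs of most fork genes were more abundant, relative to all messages, than in wild-type G1 cells. Of the 40 genes, 33 were higher, 4 lower and 3 not called (edgeR's quasi-likelihood test, Benjamini-Hochberg adjusted p below 0.1 over 5662 genes), in a comparison that called 83.8% of all genes tested (40.4% higher and 43.3% lower). Their median log2 fold change was 0.64, beside −0.02 over all genes tested, and 12 were called with a log2 fold change over 1, beside 7.63% of all genes. The replicates of the groups did not overlap for 34 of the 40, against 73.9% of all genes. When counts were summed within the alike replicates 1 and 2 and within 3 and 4, calls remained for 32 of the 33 and 3 of the 4. In whole cultures, a larger share of cells in a phase and more RNA per cell cannot be told apart.

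Bypass cells, which start replication while arrested, showed small shifts in both directions. Of the 40 genes, 17 were higher than in wild-type G1 cells, 9 lower and 14 not called, with 54.5% of all genes called (26% higher and 28.5% lower). The median was 0.02 on the log2 scale, beside −0.02 over all genes tested, the values ran from −0.51 for POL2 to 0.81 for POL30, and none exceeded 1 (1.31% of all genes). Groups did not overlap for 19 genes (44% of all genes). When counts were summed within the alike replicates 1 and 2 and within 3 and 4, calls remained for 6 of the 17 and 6 of the 9. Scaled by the ERCC spike-in RNA, which moved the median of all genes in this comparison to 0.20, the test called 20 of the 40 genes higher and 1 lower (2534 of all genes higher and 252 lower, against 1470 and 1613 under TMM). All 17 kept their call there, POL2 alone of the 9 kept it, and PRI1, RFC1 and RFC4 turned positive. Calls that held under both were those of POL30, RFC5, CTF4, RFA1, TOP1 and POL32, higher in bypass cells, and of POL2, lower. Spike-in scaling raised the values of this comparison, so a higher call kept there was hardly put to a check. With the alike replicates summed, the adjusted p (edgeR) of these 6 was 0.0201, 0.0452, 0.0638, 0.0755, 0.0473 and 0.0852 in that order, and that of POL2 was 0.017.

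Set directly against bypass cells, wild-type S cells had 34 genes higher, 3 lower and 3 not called, in a comparison that called 85.1% of all genes (41.5% higher and 43.6% lower). The median was 0.57, beside −0.02 over all genes, and 11 genes exceeded 1 (9.36% of all genes). Groups did not overlap for 35 genes (81.7% of all genes). Scaled by the spike-in RNA, the test called 29 fork genes higher and 4 lower (1814 and 2694 of all genes). The median was then 0.43, beside −0.16 over all genes. POL31, POL32, RNH202, CTF8 and CTF4 lost their higher call there. Summing the alike replicates ended the calls of CTF4 (higher) and DCC1 (lower). This comparison shares its S samples with the first and its bypass samples with the second, the first and second share the wild-type G1 samples, and the values of each are given side by side below. By mean CPM, 21 genes had their bypass level between those of the wild-type groups, 16 had it below both and 3 above both.

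**Figure D1:**
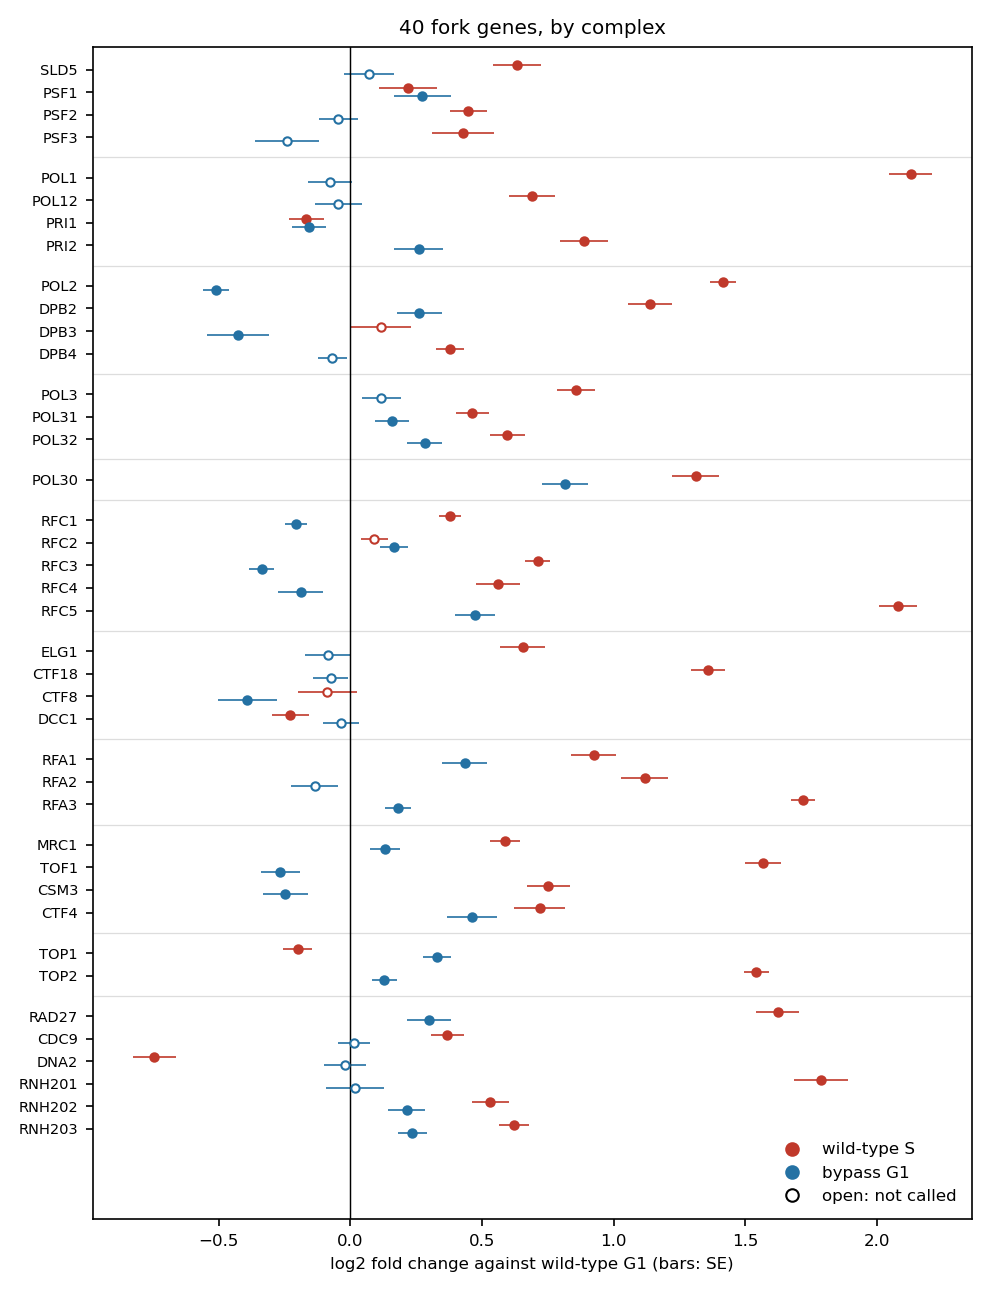
Fitted log2 fold changes of the 40 genes against wild-type G1 (x axis) for wild-type S cells (red) and bypass G1 cells (blue), with bars of 1 SE and open points for genes not called. Genes are grouped by complex down the page, and the red points run up to 2.13 (POL1) while the blue points stay between −0.51 and 0.81.

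GINS, a ring of 4 subunits, completes the helicase. Replicates 1 to 4 held 34.9, 32.8, 29.9 and 31.5 CPM of PSF2 in S cells, 23.2, 20.4, 24.3 and 23.5 CPM in bypass cells and 24.6, 24.0, 23.8 and 22.0 CPM in wild-type G1 cells. The S replicates were all above the others, and the bypass and wild-type G1 replicates overlapped. For PSF2, the log2 fold change of S against wild-type G1 was 0.45 ± 0.071 (SE, n = 4 each), a fold of 1.36, with adjusted p = 6.3e-05 (edgeR). In bypass cells the PSF2 difference was −0.05 ± 0.073 (adjusted p = 0.639, edgeR), and it turned positive under spike-in scaling. The other subunits SLD5, PSF1 and PSF3 were also called higher in S, by 0.63, 0.22 and 0.43 on the log2 scale, although PSF1 and PSF3 replicates overlapped between S and wild-type G1, and the PSF1 call was lost in 11 alternatives, among them leaving out any of 5 single libraries and summing the alike replicates (log2 fold change 0.22, adjusted p = 0.19). PSF1 was the one GINS gene called in bypass cells, at 0.27 ± 0.11 (adjusted p = 0.0537, edgeR), and that call was lost without bypass replicate 3 or 4 or without wild-type G1 replicate 1, and with the alike replicates summed.

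The subunits of polymerase alpha/primase, which lays down the RNA-DNA primers, were not moved alike. In S cells POL1 was at 202, 212, 255 and 261 CPM, in bypass cells at 50.5, 50.1, 49.5 and 51.5 CPM and in wild-type G1 cells at 52.8, 51.4, 58.0 and 50.6 CPM (replicates 1 to 4). POL1 encodes the catalytic subunit of the polymerase; its 4 S replicates stood far above the other 8, with replicates 3 and 4 above replicates 1 and 2, and the bypass and wild-type G1 replicates overlapped. For POL1, the log2 fold change of S against wild-type G1 was 2.13 ± 0.082 (SE, n = 4 each), a fold of 4.37, with adjusted p = 4.5e-11 (edgeR). With the alike replicates summed the adjusted p was 3.75e-05. The S samples were 4.61-fold above bypass cells, while the bypass difference from wild-type G1 was −0.08 ± 0.084 (adjusted p = 0.473, edgeR) and positive under spike-in scaling. POL12 had 75.5, 69.9, 95.3 and 94.4 CPM in S replicates 1 to 4, 51.6, 50.8, 50.7 and 48.7 CPM in bypass replicates and 52.8, 52.3, 51.0 and 52.2 CPM in wild-type G1 replicates. POL12, the regulatory B subunit, showed no overlap of S with either other group, and bypass and wild-type G1 overlapped. For POL12, the log2 fold change of S against wild-type G1 was 0.69 ± 0.087 (SE, n = 4 each), a fold of 1.61, with adjusted p = 7.1e-06 (edgeR). Replicates 1 to 4 held 57.3, 62.5, 65.0 and 72.0 CPM of PRI1 in S cells, 64.9, 63.0, 65.3 and 65.8 CPM in bypass cells and 71.2, 67.6, 71.9 and 78.1 CPM in wild-type G1 cells. PRI1, the catalytic primase subunit, had overlapping S and wild-type G1 replicates, while all bypass replicates lay below the lowest wild-type G1 replicate. The PRI1 log2 fold change was −0.17 ± 0.065 in S (adjusted p = 0.0302, edgeR) and −0.16 ± 0.064 in bypass cells (adjusted p = 0.063), and both calls were lost under spike-in scaling, with the bypass value turning to 0.06, and when the alike replicates were summed. Leaving out wild-type S replicate 1 also ended the S call, and leaving out bypass replicate 1 or 2 or wild-type G1 replicate 4 ended the bypass call. In S cells PRI2 was at 123, 116, 146 and 153 CPM, in bypass cells at 84.0, 83.9, 97.4 and 83.9 CPM and in wild-type G1 cells at 67.9, 68.4, 77.0 and 78.5 CPM (replicates 1 to 4). PRI2, the large primase subunit that carries an iron-sulfur cluster, was highest in S and lowest in wild-type G1, with no overlap between groups. For PRI2, the log2 fold change of S against wild-type G1 was 0.89 ± 0.091 (SE, n = 4 each), a fold of 1.85, with adjusted p = 9.7e-07 (edgeR). In bypass cells it was higher by 0.26 ± 0.092 (adjusted p = 0.0339, edgeR), a call lost without bypass replicate 3 and with the alike replicates summed (adjusted p = 0.216).

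**Figure D2:**
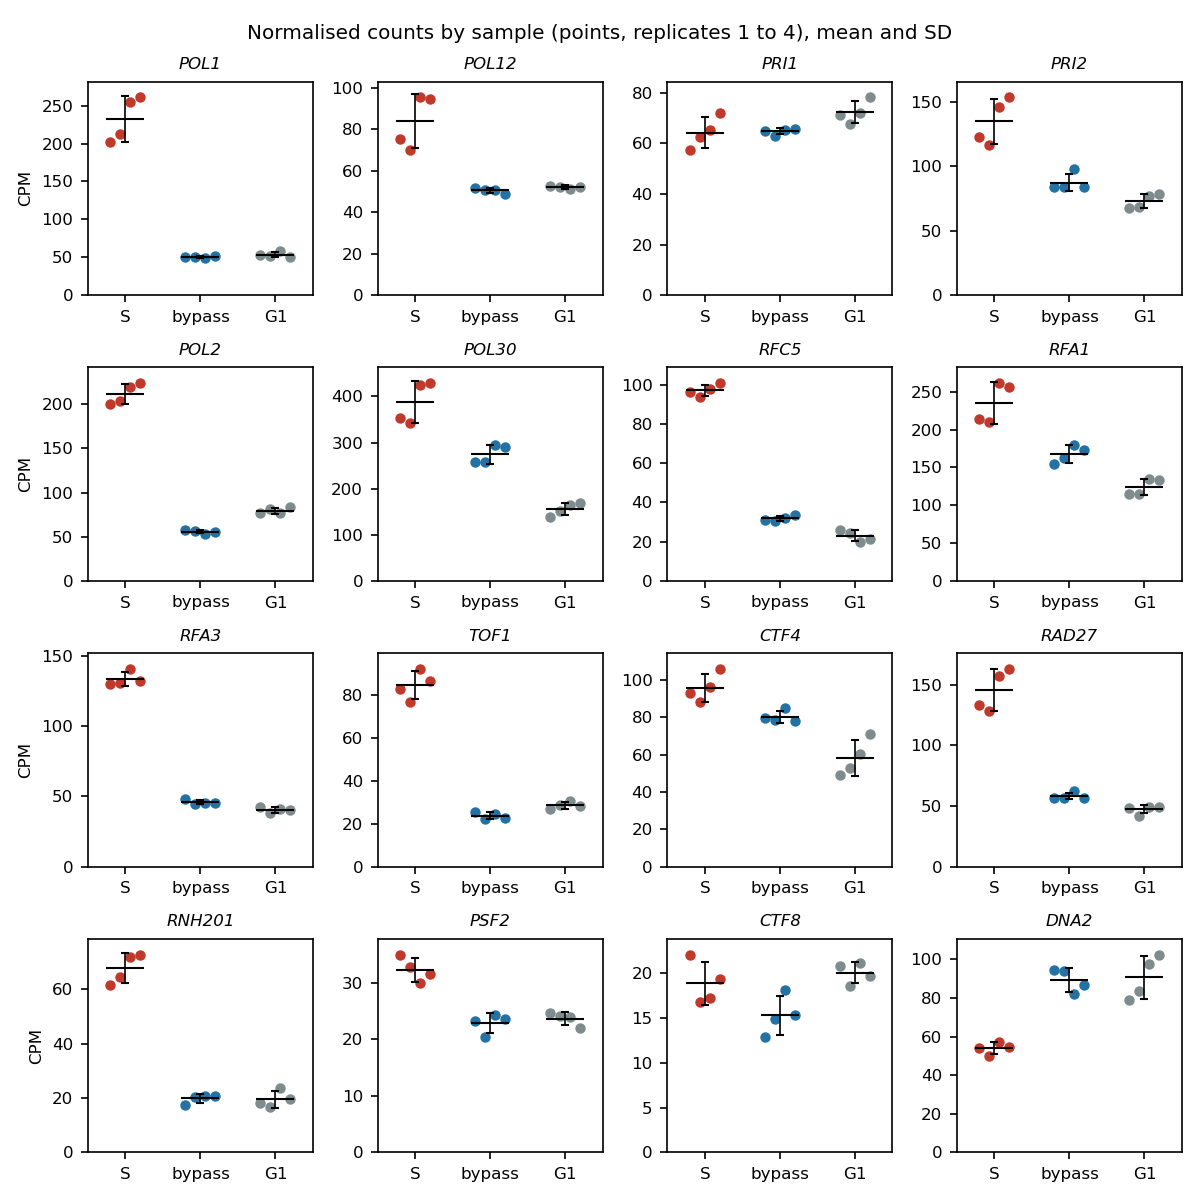
CPM of 16 genes in every sample (y axis, from 0), for wild-type S, CDK/DDK bypass G1 and wild-type G1 cells from left to right, with replicates 1 to 4 as points from left to right and the mean and SD in black (n = 4 each). S replicates stand apart from both G1 groups for POL1, POL2, RFC5, RFA3, TOF1, RAD27 and RNH201, while POL30 is in 3 steps and DNA2 is lower in S.

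Polymerase epsilon held the largest fall among the 40 genes in bypass cells. POL2 had 200.5, 204, 219 and 224 CPM in S replicates 1 to 4, 58.0, 56.2, 53.3 and 55.7 CPM in bypass replicates and 76.4, 81.3, 76.6 and 83.8 CPM in wild-type G1 replicates. POL2 encodes its catalytic subunit, and the 3 groups did not overlap, with bypass cells lowest. For POL2, the log2 fold change of S against wild-type G1 was 1.42 ± 0.049 (SE, n = 4 each), a fold of 2.67, with adjusted p = 1.6e-11 (edgeR). Bypass cells were at −0.51 ± 0.051 relative to wild-type G1 (adjusted p = 7.2e-06, edgeR), and at −0.29 (adjusted p = 0.0181) under spike-in scaling. Between S and bypass cells the POL2 difference was 1.93 ± 0.05, a fold of 3.80. DPB2, the essential second subunit, was higher in S by 1.14 ± 0.083 and in bypass cells by 0.26 ± 0.086, of which the second call was lost with the alike replicates summed (adjusted p = 0.132, edgeR). Of the histone-fold subunits, DPB4 was higher in S by 0.38 and not called in bypass cells, while DPB3 was not called in S (0.12 ± 0.11) and was lower in bypass cells by the test (−0.43 ± 0.12, adjusted p = 0.0101, edgeR), with overlapping replicates and no call under spike-in scaling.

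Messages for all 3 subunits of polymerase delta, which synthesizes the lagging strand, were higher in S without overlap of the groups. The catalytic subunit gene POL3 was higher by 0.86, POL31 by 0.46 and POL32, the subunit that carries a PCNA-binding motif, by 0.60. In bypass cells POL32 was at 39.6 to 41.8 CPM, against 30.1 to 35.7 CPM in wild-type G1 cells, and the groups did not overlap. For POL32, the log2 fold change of bypass cells against wild-type G1 was 0.28 ± 0.066 (SE, n = 4 each), a fold of 1.22, with adjusted p = 0.00405 (edgeR). With the alike replicates summed the adjusted p was 0.0852, close to the threshold. POL31 was called higher in bypass cells by 0.16, with overlapping replicates, and the call was lost with the alike replicates summed and without bypass replicate 1, 3 or 4 or wild-type G1 replicate 2, and POL3 was not called.

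POL30, the single gene for PCNA, the ring that tethers polymerase delta and many repair factors to DNA, had the largest rise of the 40 genes in bypass cells. Replicates 1 to 4 held 354, 343, 426 and 429 CPM of POL30 in S cells, 257, 257, 295 and 289 CPM in bypass cells and 139, 152, 164 and 169.9 CPM in wild-type G1 cells. The groups formed 3 steps with no overlap, S highest and wild-type G1 lowest. For POL30, the log2 fold change of S against wild-type G1 was 1.31 ± 0.088 (SE, n = 4 each), a fold of 2.48, with adjusted p = 1.3e-08 (edgeR). For POL30, the log2 fold change of bypass cells against wild-type G1 was 0.81 ± 0.088 (SE, n = 4 each), a fold of 1.76, with adjusted p = 1.4e-05 (edgeR). Its S level was still 1.41-fold above bypass cells (0.50 ± 0.086, adjusted p = 1.3e-04, edgeR). The bypass difference kept its call with the alike replicates summed (0.81, adjusted p = 0.0201) and was 1.04 under spike-in scaling, but, as for every other gene in the list, it did not pass a test against a fold of 1.5.

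Clamp loader subunits split by gene. In S cells RFC5 was at 96.1, 93.9, 97.5 and 101 CPM, in bypass cells at 31.2, 30.6, 32.0 and 33.7 CPM and in wild-type G1 cells at 25.9, 24.6, 19.8 and 21.5 CPM (replicates 1 to 4). RFC5 is one of the 4 small subunits of replication factor C, the loader of PCNA, and its 3 groups did not overlap. For RFC5, the log2 fold change of S against wild-type G1 was 2.08 ± 0.073 (SE, n = 4 each), a fold of 4.23, with adjusted p = 1.7e-11 (edgeR). For RFC5, the log2 fold change of bypass cells against wild-type G1 was 0.47 ± 0.076 (SE, n = 4 each), a fold of 1.39, with adjusted p = 2.9e-04 (edgeR). RFC1, the large subunit, RFC3 and RFC4 were higher in S by 0.38, 0.71 and 0.56, and in bypass cells they were called lower, at −0.21, −0.34 and −0.19, calls that spike-in scaling ended, with RFC1 and RFC4 above 0 there. The RFC4 bypass call was also lost under 15 other alternatives, DESeq2, the block by replicate number (−0.19, adjusted p = 0.101) and the leaving out of any of 8 single libraries among them. RFC2 was not called in S (0.09 ± 0.053) and was higher in bypass cells by 0.17 ± 0.052, with overlapping replicates and no call when the alike replicates were summed (adjusted p = 0.157, edgeR).

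Among the alternative clamp loaders, CTF18, the large subunit of a loader that acts in sister chromatid cohesion, was higher in S by 1.36 ± 0.065 (adjusted p = 4.1e-10, edgeR), and ELG1, whose protein unloads PCNA, by 0.65 ± 0.085. DCC1 and CTF8, whose proteins are partners of Ctf18, did not rise with it. DCC1 was lower in S by the test (−0.23 ± 0.07, adjusted p = 0.00904, edgeR) and lost that call under spike-in scaling. CTF8 had 22.0, 16.8, 17.1 and 19.4 CPM in S replicates 1 to 4, 12.8, 14.9, 18.1 and 15.3 CPM in bypass replicates and 20.8, 18.5, 21.1 and 19.7 CPM in wild-type G1 replicates. CTF8 replicates of S overlapped those of both other groups, and all bypass replicates lay below the lowest wild-type G1 replicate. In S its log2 fold change was −0.09 ± 0.11 (adjusted p = 0.481, edgeR), and in bypass cells −0.39 ± 0.11 (adjusted p = 0.0122), with no call under spike-in scaling. At 12.8 to 22.0 CPM in the 12 samples, CTF8 has few counts.

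RPA is the heterotrimer that coats single-stranded DNA, and the messages for all 3 subunits were raised in S, without overlap of the groups. Replicates 1 to 4 held 130.0, 130.5, 141 and 132 CPM of RFA3 in S cells, 48.2, 44.5, 45.3 and 45.6 CPM in bypass cells and 42.5, 37.9, 41.1 and 40.3 CPM in wild-type G1 cells. RFA3 encodes the smallest subunit; S replicates were well above the others, and the 2 G1 groups also did not overlap. For RFA3, the log2 fold change of S against wild-type G1 was 1.72 ± 0.047 (SE, n = 4 each), a fold of 3.29, with adjusted p = 1.5e-12 (edgeR). In bypass cells RFA3 was higher by 0.18 ± 0.049, a call lost with the alike replicates summed (adjusted p = 0.108, edgeR). In S cells RFA1 was at 213, 209.9, 261 and 257 CPM, in bypass cells at 154, 163, 180.0 and 174 CPM and in wild-type G1 cells at 114, 115, 134 and 133 CPM (replicates 1 to 4). RFA1, the largest subunit, formed 3 steps with no overlap. For RFA1, the log2 fold change of S against wild-type G1 was 0.92 ± 0.086 (SE, n = 4 each), a fold of 1.90, with adjusted p = 3.7e-07 (edgeR). For RFA1, the log2 fold change of bypass cells against wild-type G1 was 0.43 ± 0.086 (SE, n = 4 each), a fold of 1.35, with adjusted p = 0.00132 (edgeR), and 0.0755 with the alike replicates summed. RFA2 was higher in S by 1.12 ± 0.089 and was not called in bypass cells (−0.14 ± 0.09), where spike-in scaling turned its sign.

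All 4 genes of the fork protection complex and its neighbour Ctf4 were higher in S, again without overlap. TOF1 had 82.8, 77.1, 92.4 and 86.8 CPM in S replicates 1 to 4, 25.6, 22.4, 24.5 and 22.7 CPM in bypass replicates and 26.8, 28.7, 30.9 and 28.3 CPM in wild-type G1 replicates. Tof1 and Csm3 form a pair that holds DNA ahead of the helicase and pauses forks at protein barriers, and the 3 groups of TOF1 did not overlap, with bypass cells lowest. For TOF1, the log2 fold change of S against wild-type G1 was 1.57 ± 0.068 (SE, n = 4 each), a fold of 2.96, with adjusted p = 1.5e-10 (edgeR). In bypass cells TOF1 was at −0.27 ± 0.073 and CSM3 at −0.25 ± 0.085, both called lower (adjusted p = 0.00998 and 0.0299, edgeR), and spike-in scaling ended both calls, as summing the alike replicates did that of CSM3 (adjusted p = 0.188). In S, CSM3 was higher by 0.75, as was MRC1, whose protein carries the checkpoint signal at the fork, by 0.59. The MRC1 call in bypass cells (0.13) was lost under 12 alternatives, the leaving out of any of 6 single libraries among them. Replicates 1 to 4 held 93.2, 88.1, 96.2 and 106 CPM of CTF4 in S cells, 79.6, 78.4, 84.9 and 78.3 CPM in bypass cells and 49.2, 52.9, 60.3 and 71.1 CPM in wild-type G1 cells. Ctf4 is a trimer that links the helicase to polymerase alpha, and its wild-type G1 replicates spread more widely than those of bypass cells, with no overlap between any groups. For CTF4, the log2 fold change of S against wild-type G1 was 0.72 ± 0.096 (SE, n = 4 each), a fold of 1.65, with adjusted p = 1.3e-05 (edgeR). For CTF4, the log2 fold change of bypass cells against wild-type G1 was 0.46 ± 0.097 (SE, n = 4 each), a fold of 1.38, with adjusted p = 0.00188 (edgeR), and 0.0638 with the alike replicates summed.

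TOP1 and TOP2, whose enzymes relieve the twist that forks create, went apart. TOP2, encoding the enzyme that also decatenates sister chromatids, had 289 to 304 CPM in S cells, 107 to 117 CPM in bypass cells and 94.5 to 109 CPM in wild-type G1 cells, a log2 fold change of 1.54 ± 0.048 in S (adjusted p = 5.2e-12, edgeR). Its bypass call (0.13) rested on overlapping replicates and was lost when the alike replicates were summed and without bypass replicate 2 or wild-type G1 replicate 1. In S cells TOP1 was at 115, 116, 128 and 132 CPM, in bypass cells at 181, 180.2, 178 and 169 CPM and in wild-type G1 cells at 153, 137, 140.2 and 134 CPM (replicates 1 to 4). TOP1 was lowest in S and highest in bypass cells, with no overlap between any groups. For TOP1, the log2 fold change of bypass cells against wild-type G1 was 0.33 ± 0.055 (SE, n = 4 each), a fold of 1.26, with adjusted p = 3.6e-04 (edgeR). For TOP1, the log2 fold change of S against bypass cells was −0.53 ± 0.055 (SE, n = 4 each), a fold of 0.693, with adjusted p = 9.7e-07 (edgeR). Against wild-type G1, S cells were at −0.20 ± 0.055 (adjusted p = 0.00458, edgeR), a call lost under spike-in scaling.

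Enzymes of Okazaki fragment maturation gave both strong rises and the largest fall in S. RAD27 had 134, 128, 157 and 163 CPM in S replicates 1 to 4, 56.8, 56.9, 62.0 and 56.8 CPM in bypass replicates and 48.2, 42.1, 49.3 and 49.5 CPM in wild-type G1 replicates. RAD27 encodes the flap endonuclease, and its 3 groups did not overlap. For RAD27, the log2 fold change of S against wild-type G1 was 1.62 ± 0.081 (SE, n = 4 each), a fold of 3.08, with adjusted p = 6.3e-10 (edgeR). In bypass cells it was higher by 0.30 ± 0.083, a call lost when the alike replicates were summed (adjusted p = 0.13, edgeR). Replicates 1 to 4 held 54.0, 50.2, 57.4 and 54.6 CPM of DNA2 in S cells, 94.5, 94.1, 82.0 and 86.6 CPM in bypass cells and 79.1, 83.5, 97.5 and 103 CPM in wild-type G1 cells. DNA2, the nuclease-helicase that trims long flaps, was lower in every S replicate than in any other sample, and the bypass and wild-type G1 replicates overlapped. For DNA2, the log2 fold change of S against wild-type G1 was −0.74 ± 0.083 (SE, n = 4 each), a fold of 0.597, with adjusted p = 2.2e-06 (edgeR). The ligase gene CDC9 was higher in S by 0.37 ± 0.061 and did not pass the test in bypass cells (0.01 ± 0.062).

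RNase H2, which removes ribonucleotides from DNA, has a catalytic subunit encoded by RNH201. In S cells RNH201 was at 61.4, 64.7, 71.8 and 72.8 CPM, in bypass cells at 17.3, 20.5, 20.9 and 20.8 CPM and in wild-type G1 cells at 18.3, 16.6, 23.8 and 19.6 CPM (replicates 1 to 4). S replicates of RNH201 stood well above all others, and those of bypass and wild-type G1 cells overlapped. For RNH201, the log2 fold change of S against wild-type G1 was 1.79 ± 0.10 (SE, n = 4 each), a fold of 3.46, with adjusted p = 2.6e-09 (edgeR). The bypass difference was 0.02 ± 0.11 (adjusted p = 0.903, edgeR). The accessory subunit genes RNH202 and RNH203 rose less in S, by 0.53 and 0.62, and were called higher in bypass cells by 0.21 and 0.24, calls that did not hold when the alike replicates were summed (adjusted p = 0.19 and 0.104, edgeR).

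Levels of different genes were compared as TPM (counts per coding length, scaled to the same total in every sample). Summed over the 40 genes, the level was 2652, 2615, 3004 and 3045 TPM in S replicates 1 to 4, 2007, 1979, 2091 and 2043 TPM in bypass replicates, and 1732, 1714, 1900.1 and 1862 TPM in wild-type G1 replicates. The 3 groups did not overlap, and S replicates 3 and 4 lay above replicates 1 and 2. The means were 2829 ± 227 TPM in S, 2030 ± 48.4 TPM in bypass cells and 1802 ± 92.9 TPM in wild-type G1 cells (SD, n = 4 each), 1.57-fold higher in S and 1.13-fold higher in bypass cells than in wild-type G1. Most of the bypass difference was POL30: without it the sum was 2410 ± 174 TPM in S, 1684 ± 27.2 TPM in bypass cells and 1607 ± 75.1 TPM in wild-type G1 cells, 1.05-fold higher in bypass cells than in wild-type G1, and the bypass and wild-type G1 replicates overlapped. POL30 had the highest level of the 40 genes in every group, at 419 ± 53.1, 346 ± 24.3 and 195 ± 20.8 TPM in S, bypass and wild-type G1 cells. Its S level was 2.15-fold that of wild-type G1 in TPM, beside a fitted fold of 2.48. Folds of S in TPM are thus on a lower scale than the fitted folds given above. RPA summed to 590.0 ± 51.0 TPM in S cells, 298 ± 5.48 TPM in bypass cells and 267 ± 19.8 TPM in wild-type G1 cells.

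Subunits of one complex were at unequal levels per length, and the inequality differed by group. POL1 had 44.3 ± 6.13 TPM in S cells, 11.2 ± 0.192 TPM in bypass cells and 11.7 ± 0.903 TPM in wild-type G1 cells. PRI1, in the same complex, had 43.8 ± 4.56, 51.5 ± 0.976 and 56.9 ± 4.29 TPM in these groups. The genes at the extremes of polymerase alpha/primase changed between groups. The ratio of the highest to the lowest subunit was 2.14 in S cells (PRI2 over POL12). It was 4.81 in bypass cells (PRI2 over POL1) and 4.86 in wild-type G1 cells (PRI1 over POL1). For polymerase epsilon, where POL2 was lowest and DPB4 highest in every group, the ratio was 3.12 in S, 8.71 in bypass and 6.40 in wild-type G1 cells. RPA went the other way, with ratios of 2.86 in S, 1.38 in bypass and 1.65 in wild-type G1 cells. GINS subunits were within 1.26-fold of each other in S cells, 1.64-fold in bypass cells and 1.32-fold in wild-type G1 cells. These ratios are of messenger levels and carry no test.

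**Figure D3:**
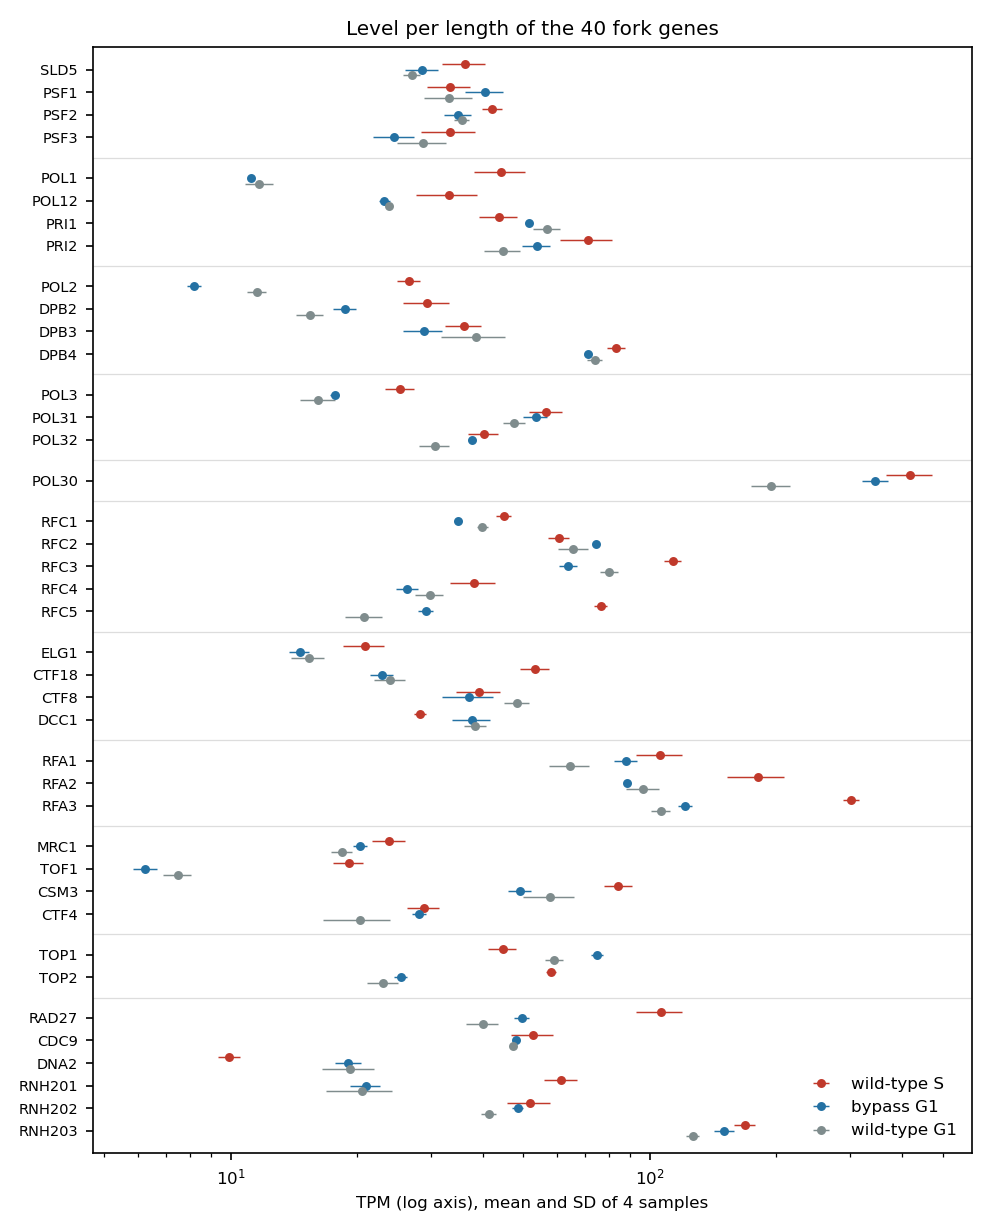
Level per length of each gene in TPM (x axis, log scale) as mean and SD of 4 samples, for wild-type S (red), CDK/DDK bypass G1 (blue) and wild-type G1 (grey), grouped by complex. POL30 is highest in every group, and the catalytic subunit genes POL1 and POL2 lie between 8.18 and 11.7 TPM in both G1 groups while their partners lie higher.

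Set beside the responses, the MCB was in 23 of the 33 windows of genes higher in S and in 1 of the 7 of genes not higher, TOP1. The median log2 fold change in S was 0.74 for the 24 genes with the element (range −0.20 to 2.13) and 0.38 for the 16 without it (−0.74 to 2.08). By number of copies it was 0.38 with 0 copies (n = 16), 0.65 with 1 (n = 17) and 1.12 with 2 (n = 7). In bypass cells the medians were −0.04, 0.16 and −0.05 for 0, 1 and 2 copies. Among the 12 genes over 1 on the log2 scale in S, 8 held the element, and RFC5, RFA3, RNH201 and CTF18 did not, as the printed RFC5 window shows. POL1, with 2 copies, was at 2.13 in S and −0.08 in bypass cells, and POL30, with 1 copy, at 1.31 and 0.81. The genes were chosen by function, and no test was made.

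**Figure D4:**
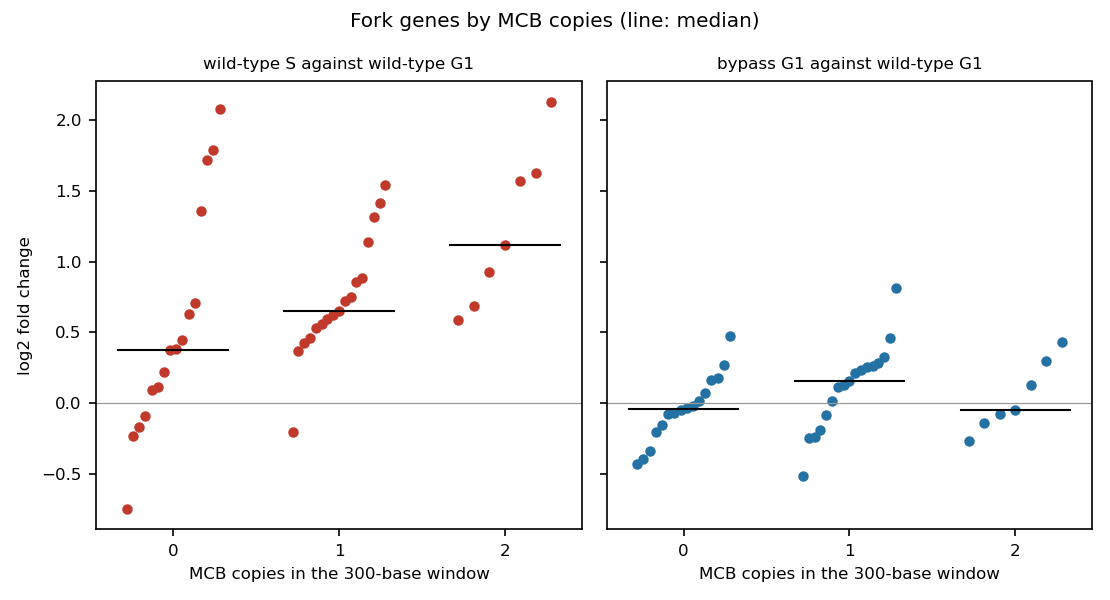
Fitted log2 fold change against wild-type G1 (y axis) by the number of MCB copies in the promoter window (x axis), for wild-type S cells (left) and bypass G1 cells (right), with 1 point for each of the 40 genes, spread sideways in order of value, and a line at the median. In S the medians are 0.38, 0.65 and 1.12 for 0, 1 and 2 copies, and in bypass cells −0.04, 0.16 and −0.05.

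Of 16 other genes of the replisome listed beside these, 8 were higher, 7 lower and 1 not called in S relative to wild-type G1 (93.8% called, beside 83.8% of all genes). The Mcm2-7 subunits, the helicase ring that GINS joins, were all 6 lower in S, from −0.51 for MCM6 to −2.13 for MCM5, whereas CDC45, the third helicase component, was higher by 1.41 and GINS by 0.22 to 0.63. Summed, MCM2 to MCM7 had 73.1, 75.0, 85.9 and 91.0 TPM in S replicates 1 to 4, 285, 281, 273 and 279 TPM in bypass replicates and 256, 258, 276 and 266 TPM in wild-type G1 replicates, with no overlap of S with the others. In bypass cells 5 of the 16 were called higher and 1 lower (37.5% called, beside 54.5% of all genes). The helicase PIF1 and the related RRM3, which help forks past obstacles, were higher in S by 1.01 and 0.92.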

How the data were processed

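Polyadenylated RNA of 12 samples was sequenced with a strand-specific kit after ERCC spike-in RNA was added, and groups and replicate numbers came from the sample labels. The authors deposited raw counts per gene, made with STAR 2.7.10a, SAMtools 1.12 and htseq-count 2.0.1 (reverse strand, non-unique reads not counted) on sacCer3, with no normalization. Lines for reads outside genes (3.36 to 5.52% of each sample), not unique (5.70 to 6.35%) or ambiguous (0.014 to 0.023%) were left out.

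Counts were filtered with filterByExpr at a minimum count of 10, normalized with TMM and tested with edgeR 4.0.16 in R 4.3.3 (glmQLFit, glmQLFTest, all 12 samples, 3 groups), with calls at an adjusted p below 0.1 (Benjamini-Hochberg, 5662 genes tested). The SE is the size of the log2 fold change over the square root of F. CPM are TMM-scaled counts. TPM and promoter windows used the R64 annotation of RefSeq, the same assembly as sacCer3, to which 6177 of 6412 features, with 99.8% of counts, were matched, and 0 of the 40 genes overlap another on the same strand. Values in every sample are given for the 6 genes with the largest fold change in each comparison among those called and not overlapping, for polymerase alpha/primase, PSF2 and POL30, and DNA2 and TOP1 were added after their values were seen. The 40 names and the other lists were drawn up with earlier results of these data known. Replicate numbers pair samples where every same-numbered pair correlates over 0.1 (deviations from the group mean of log2(CPM + 1)): this held for S with wild-type G1 (0.10 to 0.18), not for bypass with wild-type G1 (0.071 to 0.23) or S with bypass (−0.0011 to 0.013). No label gives a source of pairing. Counts were simulated for S against wild-type G1 (5620 genes). The test called 100 of 100 genes changed by 1 on the log2 scale, 97 of 100 changed by 0.5 and 23 of 5420 unchanged. The simulated replicates were independent, with 1 spread for all genes and few genes changed. The data have alike replicates and many genes called, so these rates need not hold for them. The alternatives were DESeq2 1.42.0, RLE, library and spike-in totals, other filters, an adjusted p below 0.05, a fold of 1.5, fits of 2 groups, the replicate block, summed or single pairs of alike replicates (chi-square per gene 1.48 to 2.41 within these pairs and 2.98 to 45.7 across them) and leaving out each library. Intervals of counting error are not given, since the spread between replicates is.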

Additional observations from a re-analysis of the deposited data

Results flagged for a closer look

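In 5 of 120 sets of 4 replicates (40 genes in 3 groups), 1 replicate stood apart from the other 3 by Dixon's test at the 95% level, where chance gives about 6. PRI2 was at 97.4 CPM in bypass replicate 3, against 83.9 to 84.0 CPM in the other bypass replicates, and its call in bypass cells was lost without that library. RAD27 was at 62.0 CPM in the same library, against 56.8 to 56.9 CPM. RNH201 was at 17.3 CPM in bypass replicate 1, against 20.5 to 20.9 CPM. S replicate 3 held 141 CPM of RFA3, against 130.0 to 132 CPM in the other S replicates, and replicate 2 of wild-type G1 held 112 CPM of RFC1, against 104 to 105 CPM.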

How the results depend on the processing

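The number of the 40 genes called stayed within 1.5 times its value under every alternative except those named here. Against a fold of 1.5 (edgeR's glmTreat, adjusted p below 0.1) it was 19 in S against wild-type G1, 0 in bypass against wild-type G1 (26 when tested against any difference) and 18 in S against bypass, with 1966, 93 and 2240 of all genes. With counts summed within the alike replicates it was 12 in bypass against wild-type G1, with 1477 of all genes. In CPM the log2 ratio of the summed level was 0.85 for S against wild-type G1 and 0.73 for S against bypass, beside 0.65 and 0.48 in TPM. Single genes, whose length cancels in a ratio, also gave smaller S folds in TPM. For POL30 the S level was 2.15-fold that of wild-type G1 and 1.21-fold that of bypass cells in TPM, beside fitted folds of 2.48 and 1.41. The gap therefore holds a difference in how samples are scaled. Leaving out POL30, tried after its values were seen, brought the TPM log2 ratio of bypass to wild-type G1 to 0.068, beside 0.17. Leaving out 1 library gave 35 to 38, 22 to 26 and 37 to 38 genes in the 3 comparisons, in the order above.

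Same-numbered samples correlated over 0.1 in 7 of 12 pairs, all 4 of them in S with wild-type G1, and 7 of 12 samples matched their own number best. In both comparisons with wild-type G1, correlations within the sets of replicates 1 and 2 and of 3 and 4 were all positive (0.071 to 0.23). Those across the sets were all negative (−0.24 to −0.058). Deviations from a group mean cancel out over its replicates, so positive values within the sets bring negative ones across them. The negative sign is therefore not a separate observation. With the replicate block, 37, 25 and 37 genes were called, and the RFC4 call in bypass cells was the one lost.

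Signs turned for values near 0. In bypass against wild-type G1, spike-in totals gave PSF2 0.17, POL1 0.14, POL12 0.17, PRI1 0.060, DPB4 0.14, RFC1 0.011, RFC4 0.025, ELG1 0.13, CTF18 0.15, DCC1 0.18, RFA2 0.080 and DNA2 0.20, of which PRI1, RFC1 and RFC4 had been called lower, and library totals gave CDC9 −0.0060 and RNH201 −0.0028. Replicates 3 and 4 alone gave PSF2 0.055, DCC1 0.018 and RNH201 −0.071, and replicates 1 and 2 alone gave DNA2 0.23. Leaving out 1 library gave PSF2 −0.078 to 0.0034, DCC1 −0.11 to 0.012, DNA2 −0.082 to 0.042 and RNH201 −0.053 to 0.12. In S against bypass, PRI1 was 0.0099 with DESeq2, 0.0045 with RLE, 0.068 with replicates 3 and 4 alone and −0.070 to 0.042 without 1 library, and PSF1 was 0.0078 with replicates 1 and 2 alone and −0.095 to 0.022 without 1 library. In S against wild-type G1, CTF8 was 0.0030 with replicates 1 and 2 alone. Except for the direct outcome of rescaling or of fewer samples, the cause was not tested. PSF3, CTF8, PSF1, RNH201 and DPB3 had the lowest single-sample counts and the widest errors in each comparison.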

Other observations

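The shorter run ACGCG, on either strand, was counted after the windows had been seen. It was in 32 of the 40 windows (80%), against 841 of all 6001 (14%), and in all 12 windows of the genes over 1 on the log2 scale in S, the 4 without the whole MCB (RFC5, RFA3, RNH201 and CTF18) included. Among the 7 genes not higher in S it was in 3. Of all 425 genes over 1 in S with a window, 37 held the whole MCB (8.71%) and 122 the shorter run (28.7%), against 8 and 12 of the 12 fork genes over 1. Of the 16 other replisome genes, 3 held the whole MCB and 10 the SCB.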
